A study of Mus musculus with 10 samples.

Results

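The guanylate-binding proteins (GBPs) were followed in cardiomyocyte RNA of the infarcted mouse heart through 10 genes, Gbp2, Gbp2b, Gbp3, Gbp4, Gbp5, Gbp6, Gbp7, Gbp8, Gbp9 and Gbp10. These are 10 of the 51789 genes in the counts table, chosen by name because 1 of them, Gbp6, had stood out in the same comparison. The contrast that led to the choice is the one described here, so the values of the 10 genes are a description and carry no p-value. The study compared 5 NLC-MI mice, non-transgenic littermate controls, with 5 TgGRK5-MI mice, whose transgene for the kinase GRK5 is confined to cardiomyocytes. All 10 mice had a permanent coronary ligation (MI), and cardiomyocytes were collected on day 4. The infarcted mice of the study were young adults of both sexes, and their strain and the sex of each mouse were not given in the sources used here. No sham-operated library was part of the comparison, so levels before injury were not analysed here. Grk5 itself lay between 46.5 and 73.1 counts scaled to library size (CPM) in NLC-MI and between 552 and 1700 CPM in TgGRK5-MI, higher in every TgGRK5-MI library than in any NLC-MI library.

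GBPs are large GTPases that interferon gamma induces strongly, and type I interferons to a lesser degree. They gather on the membranes of vacuoles that hold bacteria or parasites, and on bacteria in the cytosol, where they open the vacuole or feed the inflammasome. In mice they are best known from macrophages, while endothelial cells and other tissue cells also make them under interferon. The transcription factor IRF1 acts at their promoters.

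The genes lie in 2 clusters of the GRCm38 genome, the build also called mm10. Gbp2, Gbp2b, Gbp3, Gbp5 and Gbp7 lie on the plus strand of chromosome 3 between 142493978 and 142638008, and Gbp4, Gbp6, Gbp8, Gbp9 and Gbp10 on the minus strand of chromosome 5 between 105014150 and 105293698. The coding sequences within the chromosome 5 cluster are alike, and those of Gbp6 and Gbp10 are 98.4% identical over 1833 bases, with 421 bases in a row without a difference. By contrast, Gbp2 and Gbp2b, the nearest pair checked on chromosome 3, are 82.5% identical. Another annotated gene, Gm43302, joins both members: of its 11 exons, 10 overlap exons of Gbp6 and the last one overlaps an exon of Gbp10, all on the minus strand (Gm43302 spans chr5:105214907-105293695). It shares 1726 exon bases with Gbp6 (29.0% of those of Gbp6) and 1792 with Gbp10 (46.3% of those of Gbp10). Gm43302 is not one of the 10 genes but has its own row in the counts table, and it bears on the result for Gbp6.

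Short stretches of the coding sequence show what reads can and cannot separate. The first set is the stretch of 90 coding bases in which Gbp6 and Gbp10 differ most, in the 10th exon, printed 5′ to 3′ on the minus strand with capitals at the 12 positions where they differ. Gbp6 and Gm43302 share the position chr5:105274192-105274281 and Gbp10 has chr5:105218392-105218481.
Gbp6: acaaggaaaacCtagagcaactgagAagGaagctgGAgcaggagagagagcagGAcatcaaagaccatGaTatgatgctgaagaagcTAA
Gm43302: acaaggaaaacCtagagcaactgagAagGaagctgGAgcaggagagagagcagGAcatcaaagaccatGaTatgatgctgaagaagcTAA
Gbp10: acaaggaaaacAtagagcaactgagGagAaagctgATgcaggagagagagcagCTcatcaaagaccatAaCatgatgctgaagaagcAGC
In this stretch Gm43302 has 0 differences from Gbp6 and 12 from Gbp10. The second set is the stretch of 90 bases with the most differences in the last exon, exon 11, with capitals at its 2 differences. Gbp6 lies at chr5:105273168-105273257, and Gm43302 and Gbp10 share chr5:105217371-105217460.
Gbp6: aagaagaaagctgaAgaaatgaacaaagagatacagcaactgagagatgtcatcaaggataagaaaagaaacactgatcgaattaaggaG
Gm43302: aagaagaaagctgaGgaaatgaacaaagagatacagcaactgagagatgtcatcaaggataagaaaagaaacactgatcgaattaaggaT
Gbp10: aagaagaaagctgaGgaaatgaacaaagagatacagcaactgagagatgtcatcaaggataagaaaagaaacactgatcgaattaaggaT
Here Gm43302 has 2 differences from Gbp6 and 0 from Gbp10. Of the 943 stretches of 90 coding bases that lie within 1 exon of both Gbp6 and Gbp10, 459 (48.7%) had 0 differences.

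Over all annotated transcripts, 29.3% of the 50-base stretches of Gbp6 and 15.9% of those of Gbp10 occur in no other gene. For Gm43302 that share is 0%, and with 100-base stretches it is 1.19%, against 35.5% for Gbp6 and 26.5% for Gbp10. Taken as a unit, Gbp6, Gbp10 and Gm43302 share little with the rest of the annotation, since 90.6% of their 50-base stretches and 98.2% of their 100-base stretches occur in no gene outside the 3. For the other 8 members between 81.9% (Gbp8) and 98.6% (Gbp5) of 50-base stretches are their own. Gbp7, at 87.3%, shares 10.5% of its stretches with the processed pseudogene Gm43802. The counts of Gbp6 and Gbp10 are thus less certain, gene by gene, than those of the other members.

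**Figure D1:**
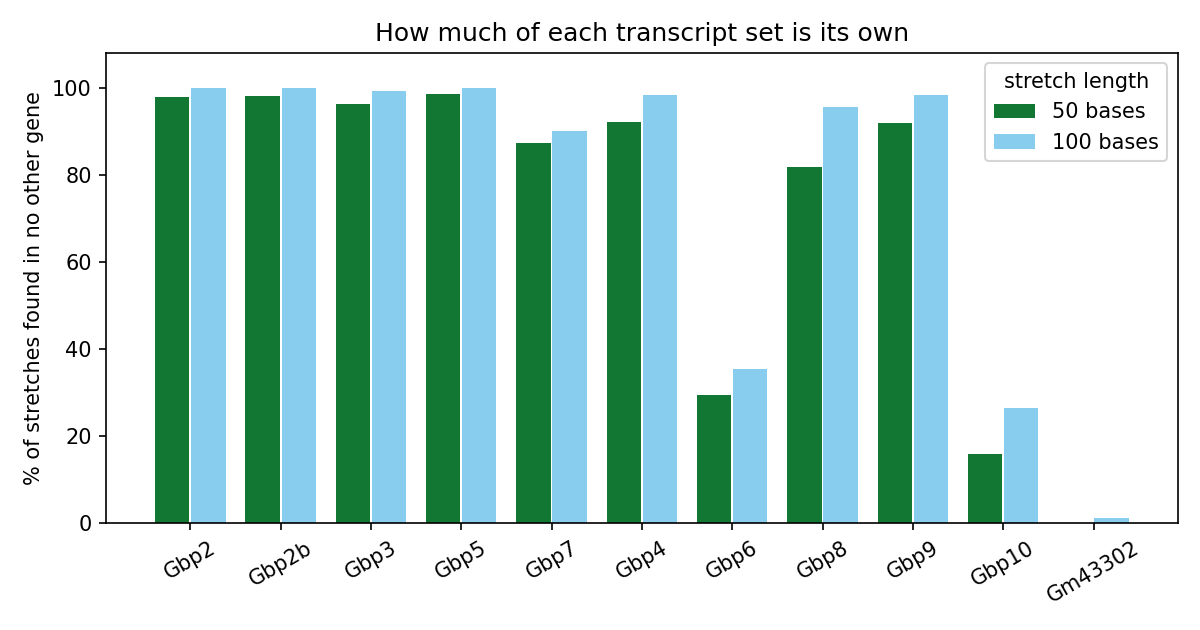
Share of the transcript sequence that belongs to 1 gene alone. The bars give, for the 10 members and Gm43302, the percent of distinct stretches of 50 or 100 bases that occur in no other annotated gene, and Gbp6, Gbp10 and Gm43302 stand apart at 35.5% or less while the other members lie at 81.9% or more.

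RefSeq promoters of the chromosome 3 cluster run from 250 bases before to 50 bases after a RefSeq transcript start (GRCm38.p6). They could be searched for the letters of 2 known elements on both strands. These were the gamma-activated site TTCNNNGAA and the core of the interferon-stimulated response element GAAANNGAAA. The first occurs in 8.30% of 32851 promoters and the second in 3.44%. Gbp5 and Gbp7 each hold 2 matches of the gamma-activated site and 1 of the response element, Gbp2 and Gbp2b hold 1 of the response element, and Gbp3 holds 2 that overlap in 1 promoter and none of either in its second. The promoters of Gbp5 (chr3:142496684-142496983), Gbp7 (chr3:142530086-142530385) and Gbp2 (chr3:142620413-142620712), all on the plus strand, are shown with the matches in capitals because they hold the most matches or belong to the member with the highest level per length.
Gbp5: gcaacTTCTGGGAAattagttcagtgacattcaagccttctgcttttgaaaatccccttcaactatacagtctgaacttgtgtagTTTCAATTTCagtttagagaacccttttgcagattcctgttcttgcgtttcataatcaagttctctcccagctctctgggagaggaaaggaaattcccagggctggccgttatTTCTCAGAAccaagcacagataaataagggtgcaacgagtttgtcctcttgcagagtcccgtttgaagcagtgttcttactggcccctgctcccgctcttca
Gbp7: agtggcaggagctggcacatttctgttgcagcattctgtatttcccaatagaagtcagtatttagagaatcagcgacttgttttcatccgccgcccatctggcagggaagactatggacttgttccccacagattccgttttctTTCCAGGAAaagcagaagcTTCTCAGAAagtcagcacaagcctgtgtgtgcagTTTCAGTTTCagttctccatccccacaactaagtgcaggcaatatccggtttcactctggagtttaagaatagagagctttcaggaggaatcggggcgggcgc
Gbp2: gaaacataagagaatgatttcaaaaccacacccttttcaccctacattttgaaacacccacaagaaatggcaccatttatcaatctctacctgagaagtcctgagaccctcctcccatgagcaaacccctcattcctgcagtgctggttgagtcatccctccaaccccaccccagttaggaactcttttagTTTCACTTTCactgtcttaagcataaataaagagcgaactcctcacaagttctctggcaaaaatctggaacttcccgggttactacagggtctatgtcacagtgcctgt
A match is a description of the letters and not a measurement of binding.

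The 10 libraries held from 7968779 counts (NLC-MI replicate 3) to 23381527 counts (NLC-MI replicate 2). At the depth of each library, 3 counts corresponded to between 0.121 and 0.393 CPM, and a level under that floor could not be told from none. Of the 10 genes, 9 passed the filter on low counts. Gbp2b did not: it had 0 or 1 count in every library and 3 counts in all, so no fold is given for it. CPM values were scaled with edgeR's TMM factors, and fold changes were taken from edgeR's quasi-likelihood fit to the 15232 genes that passed.

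Cardiomyocyte markers summed to between 46173 and 121134 CPM in NLC-MI and between 48780 and 97065 in TgGRK5-MI, so the labelled cell type was present in all libraries. RNA of other cells was there as well. The 8 macrophage and monocyte markers summed to between 537 and 1759 CPM in NLC-MI and between 935 and 1961 in TgGRK5-MI, and the 8 fibroblast markers to between 3150 and 18400 CPM and between 3360 and 18863 CPM. The 8 endothelial markers summed to between 866 and 1505 CPM and between 792 and 1598 CPM, the 6 neutrophil markers to between 9.75 and 25.0 CPM and between 12.7 and 30.4 CPM, and the 8 T and NK lymphocyte markers to between 2.36 and 6.78 CPM and between 3.01 and 6.28 CPM. At an unadjusted p under 0.05, 1 marker, of cardiomyocytes, was lower (2.08% of all genes) and 0 were higher (1.77%). Only 2 of the 8 T and NK lymphocyte markers and 4 of the 6 neutrophil markers passed the filter on low counts. The rest of these 2 lists were too sparse to be tested. Of the markers tested in each list, 0 were called at the adjusted threshold, and no listed marker was at 0 in all libraries. In bulk RNA, fewer cells of a type and less RNA per cell cannot be told apart. The part of these cells in the results below was not tested.

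Gbp6 was the member whose groups stood apart. Its 5 NLC-MI libraries were at 34.5, 38.4, 39.3, 27.0 and 47.5 CPM, and its 5 TgGRK5-MI libraries at 7.11, 9.51, 10.2, 11.8 and 10.4 CPM. The lowest NLC-MI library was more than 2 times the highest TgGRK5-MI library. In counts this was 300 to 949 reads against 110 to 218 reads, far above the floor. The mean went from 37.3 ± 7.44 to 9.80 ± 1.73 CPM (n = 5 each, SD), a log2 fold change of -1.93 (standard error, SE, 0.19). The edgeR fit called 1 of the 9 members tested at an adjusted p under 0.10, Gbp6, against 0.0788% of all genes in either direction and 0.0263% in this direction. DESeq2 also called 1 member, with 0.397% of its genes called. At an unadjusted p under 0.05, 1 member was lower (2.08% of all genes) and 0 were higher (1.77%). Gbp6 was also the 1 member with non-overlapping groups (0.420% of all genes, TgGRK5-MI lower). Since this contrast led to the choice of the family, nothing is read from these counts.

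Counts on Gm43302 ran the other way. The NLC-MI libraries held 27, 6, 98, 51 and 93 reads, or 1.19, 0.24, 12.8, 2.39 and 6.09 CPM. The TgGRK5-MI libraries held 199, 389, 62, 82 and 205 reads, or 8.90, 17.0, 5.39, 8.83 and 11.0 CPM. Most TgGRK5-MI libraries were above most NLC-MI libraries, but the groups overlapped, since NLC-MI replicate 3 exceeded 4 of the 5 TgGRK5-MI libraries. The log2 fold change was 1.25 (SE 0.73) and was not called. Gbp10 counts were low, at 1.85, 2.11, 0.26, 1.08 and 2.62 CPM in NLC-MI and 1.92, 2.88, 1.56, 1.40 and 3.76 in TgGRK5-MI. NLC-MI replicate 3, with 2 reads, was under the floor, and the groups overlapped (log2 fold change 0.51, SE 0.43).

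How the reads divide among the 3 genes therefore differed between the groups. Gbp6 held 91.9, 94.2, 75.0, 88.6 and 84.5% of the reads on Gbp6, Gbp10 and Gm43302 in NLC-MI, but 39.7, 32.4, 59.4, 53.7 and 41.2% in TgGRK5-MI (86.9 ± 7.57% against 45.3 ± 11.0%, n = 5 each, SD). The lowest NLC-MI share came from 400 reads and the highest TgGRK5-MI share from 197 reads. No interval is given for these shares, because the reads may have been divided among the genes by estimate.

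Adding the 3 genes into 1 row, an alternative chosen after the overlap of their exons was seen, gave 37.5, 40.8, 52.3, 30.5 and 56.2 CPM in NLC-MI and 17.9, 29.4, 17.1, 22.1 and 25.1 in TgGRK5-MI. The groups did not overlap (0.420% of all genes, TgGRK5-MI lower), though NLC-MI replicate 4 and TgGRK5-MI replicate 2 nearly met. The means were 43.5 ± 10.6 and 22.3 ± 5.09 CPM (n = 5 each, SD), a log2 fold change of -0.96 (SE 0.21), so that the sum in TgGRK5-MI was 0.515 times that in NLC-MI, where Gbp6 alone was at 0.262 times. The summed row was not called by edgeR at an adjusted p under 0.10, and was called by DESeq2 with a log2 fold change of -0.97. In the fits of single genes, edgeR called 0.0788% of all genes and DESeq2 0.397%. With Gbp6 and Gbp10 alone added up, the log2 fold change was -1.68 (SE 0.18) and the row was called. These calls and the gap between the groups are a description too, since Gbp6 led to the choice of the family. Reads on this locus were thus lower in TgGRK5-MI in each version, while the size of the difference and the edgeR call depended on whether Gm43302 was counted with Gbp6. The labels list RSEM, a program that divides reads shared by several transcripts among them by estimate. How shared reads were divided here was not given in the sources used, and the part of that division in the difference was not tested.

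**Figure D2:**
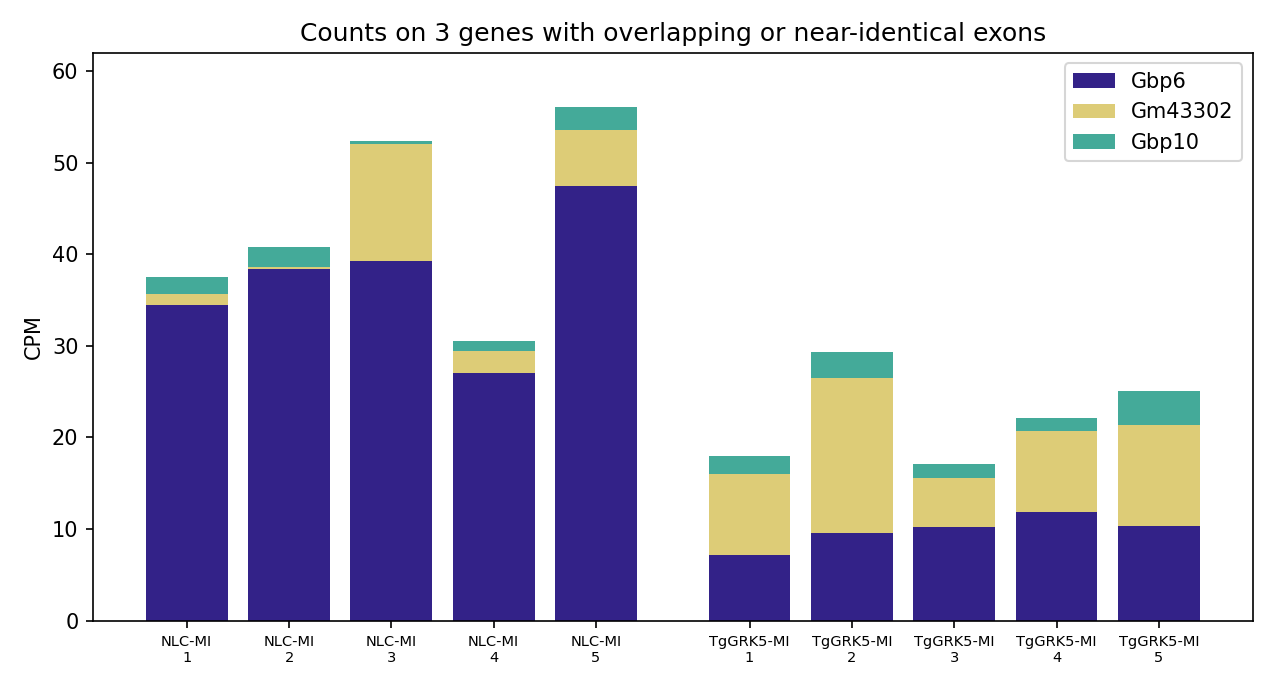
Reads on Gbp6, Gm43302 and Gbp10 in each library. The stacked bars give CPM for the 3 genes in the 5 NLC-MI and 5 TgGRK5-MI libraries, and the full bars run from 30.5 to 56.2 CPM in NLC-MI and from 17.1 to 29.4 in TgGRK5-MI, with a larger part on Gm43302 in TgGRK5-MI.

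The other members of the chromosome 5 cluster did not stand apart. Gbp4 was at 18.0, 17.0, 17.9, 14.8 and 20.5 CPM in NLC-MI and at 9.21, 15.3, 11.6, 23.4 and 17.4 in TgGRK5-MI. The TgGRK5-MI libraries spread to both sides of the NLC-MI libraries, with an SD of 5.48 against 2.04 CPM, and the log2 fold change was -0.20 (SE 0.23). Gbp9 was at 30.1, 27.0, 31.3, 20.0 and 18.3 CPM in NLC-MI and at 24.1, 29.5, 18.9, 35.0 and 34.3 in TgGRK5-MI. The log2 fold change of Gbp9 was 0.17 (SE 0.21), the 1 member besides Gbp10 above 0. Gbp8 was sparse, with 5 to 42 reads in NLC-MI and 6 to 22 reads in TgGRK5-MI, and its log2 fold change of -0.57 had an SE of 0.49. Without NLC-MI replicate 1, which held 42 reads, the log2 fold change of Gbp8 was -0.05, and without TgGRK5-MI replicate 2 it was -0.88.

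On chromosome 3, where sequence is more distinct, the groups overlapped for all 4 members tested. Gbp2, a GBP that reaches both vacuoles and free bacteria, was at 40.0, 38.1, 28.5, 17.8 and 27.2 CPM in NLC-MI and 25.2, 37.8, 17.3, 37.5 and 27.8 in TgGRK5-MI. The ranges of Gbp2 nearly coincide, and the log2 fold change was -0.06 (SE 0.26). Gbp5, which promotes inflammasome assembly, was at 12.2, 10.6, 9.16, 7.46 and 12.9 CPM in NLC-MI and 7.25, 9.38, 4.69, 10.2 and 8.97 in TgGRK5-MI. It lay lower on average, with a log2 fold change of -0.37 (SE 0.23), but 3 of the 5 TgGRK5-MI libraries were within the range of NLC-MI. Gbp7, linked to oxidative killing in macrophages, was at 30.6, 25.7, 29.7, 14.9 and 21.7 CPM in NLC-MI and 18.6, 23.0, 14.3, 29.2 and 17.1 in TgGRK5-MI (log2 fold change -0.26, SE 0.24). Gbp3 was at 32.4, 27.7, 18.5, 13.1 and 18.5 CPM in NLC-MI and 17.8, 26.7, 10.1, 17.1 and 22.6 in TgGRK5-MI (log2 fold change -0.22, SE 0.29). For both genes the spread within a group was larger than the difference between groups.

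**Figure D3:**
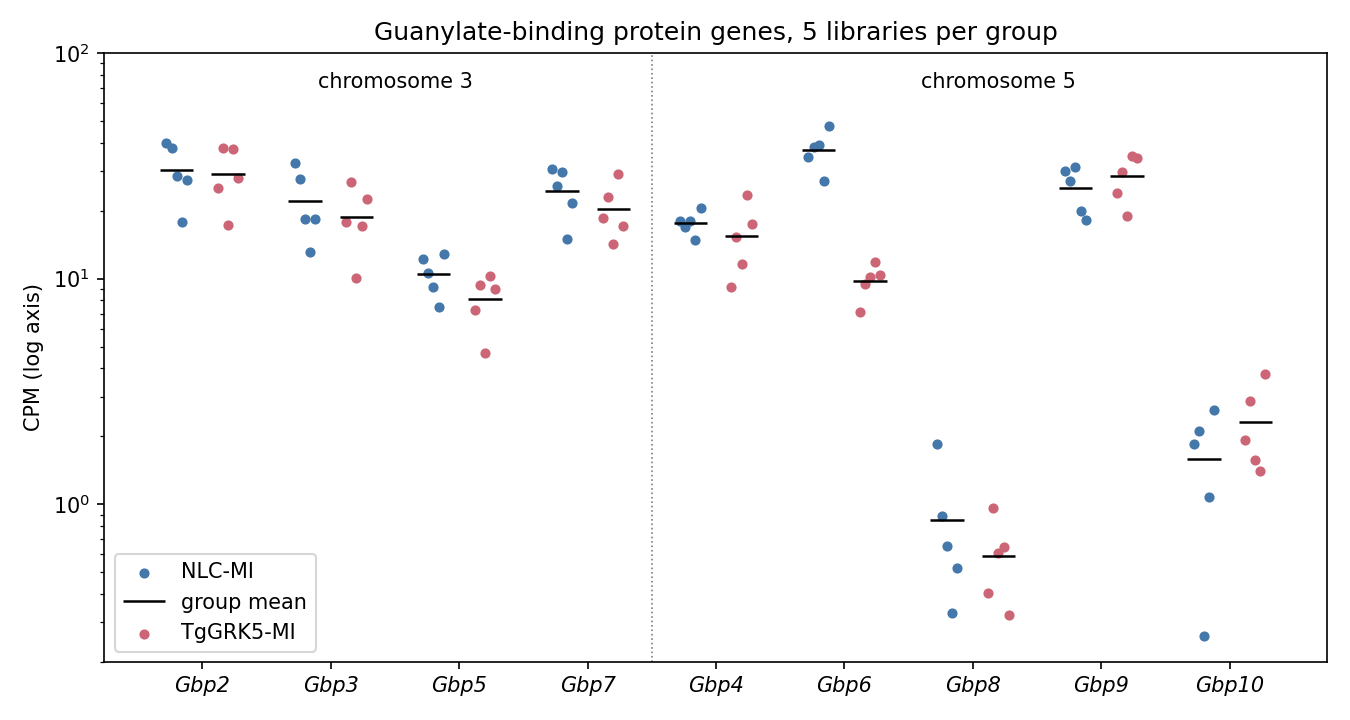
Levels of the 9 members tested in every library. Points are CPM of single libraries on a log axis, black lines are group means, and Gbp6 is the 1 gene whose 5 NLC-MI libraries (27.0 to 47.5 CPM) all lie above its 5 TgGRK5-MI libraries (7.11 to 11.8 CPM).

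Across the 9 members tested, 7 log2 fold changes were below 0 and 2 above, with a median of -0.22, against 0.00 over all genes tested, of which 49.8% were below 0. Gbp2 lay close to 0 and was above it without NLC-MI replicate 1 or 2 or TgGRK5-MI replicate 3, which made the tally 6 and 3. Without Gbp6 the median was -0.21, and the values ran from -0.57 to 0.51. The summed level of the family was 170 ± 32.3 CPM in NLC-MI and 133 ± 31.8 in TgGRK5-MI (n = 5 each, SD). Without Gbp6 it was 133 ± 29.3 and 123 ± 31.03 CPM. The summed level thus differed by less than 1 SD once Gbp6 was left out. Gbp6 made up between 17.1 and 28.0% of the reads of the family in NLC-MI and between 6.13 and 11.4% in TgGRK5-MI. Chromosome 3 members summed to between 53.3 and 115 CPM in NLC-MI and between 46.4 and 97.0 in TgGRK5-MI, and chromosome 5 members to between 63.3 and 89.4 CPM and between 42.7 and 72.3 CPM. These sums and shares leave out Gm43302, which was at 4.55 ± 5.13 CPM in NLC-MI and 10.2 ± 4.28 in TgGRK5-MI (n = 5 each, SD). Reads may have been divided between Gm43302, Gbp6 and Gbp10 by estimate, and the part of that division in these values was not tested.

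**Figure D4:**
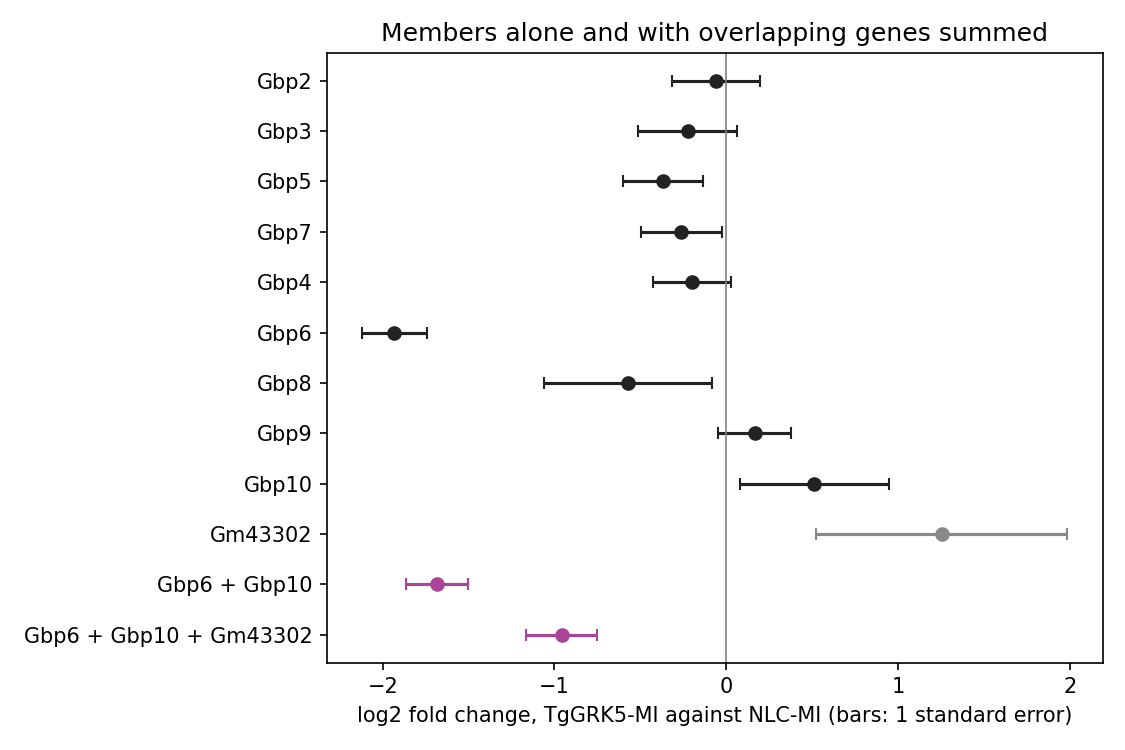
Log2 fold changes of TgGRK5-MI against NLC-MI for the 9 members tested, for Gm43302, and for rows with overlapping genes added up. Points are edgeR estimates and bars are 1 standard error, and the value for Gbp6 (-1.93) moves to -1.68 with Gbp10 and to -0.96 with Gbp10 and Gm43302 added.

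Levels per length put the members in order within a group. In CPM per kilobase of exon, the order in NLC-MI was Gbp2 (12.1 ± 3.57), Gbp3 (6.75 ± 2.40), Gbp6 (6.27 ± 1.25), Gbp9 (4.90 ± 1.14), Gbp7 (4.37 ± 1.14), Gbp4 (2.35 ± 0.272), Gbp5 (1.58 ± 0.333), Gbp10 (0.409 ± 0.239), Gbp8 (0.247 ± 0.173) and Gbp2b (n = 5 each, SD). Of these neighbours, Gbp7 and Gbp4, Gbp4 and Gbp5, and Gbp5 and Gbp10 were further apart than their SDs added up, and the pairs from Gbp2 down to Gbp7 and the pair of Gbp10 and Gbp8 were not; Gbp2b was under the floor. In TgGRK5-MI the same scale gave Gbp2 (11.6 ± 3.46), Gbp3 (5.77 ± 1.92), Gbp9 (5.48 ± 1.33), Gbp7 (3.64 ± 1.04), Gbp4 (2.05 ± 0.731), Gbp6 (1.65 ± 0.290), Gbp5 (1.22 ± 0.331), Gbp10 (0.595 ± 0.257), Gbp8 (0.171 ± 0.0722) and Gbp2b. There Gbp2 and Gbp3, Gbp5 and Gbp10, and Gbp10 and Gbp8 were further apart than their SDs added up, and the neighbours from Gbp3 down to Gbp5 were not. Gbp6 thus moved from rank 3 to rank 6 while the other members kept their order among themselves. Per kilobase of the longest coding transcript, a length chosen after the values were seen, it moved from rank 1 to rank 4. On both scales the ranks of Gbp6 rest on its own row, whose reads may have been divided with Gm43302 and Gbp10 by estimate.

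Libraries of a group differed from each other in several members at once. NLC-MI replicate 4 was the lowest of its group for 7 of the 9 members tested, and NLC-MI replicates 1 and 5 were each the highest for 4. In TgGRK5-MI, replicate 4 was the highest for 5 members and replicate 3 the lowest for 5. The spread was widest for the sparse genes, with a coefficient of variation of 70.1% for Gbp8 and 58.4% for Gbp10 in NLC-MI, and narrowest for Gbp4 (11.6%) in NLC-MI and Gbp6 (17.6%) in TgGRK5-MI. Cell type markers moved along for some of these libraries. TgGRK5-MI replicate 3 had the lowest macrophage (935 CPM) and fibroblast (3360 CPM) sums and the highest cardiomyocyte sum (97065 CPM) of its group, and TgGRK5-MI replicate 2, the highest for Gbp2, Gbp3 and Gbp8, had the highest macrophage sum (1961 CPM). NLC-MI replicate 1, the highest for Gbp2, Gbp3, Gbp7 and Gbp8, had the highest macrophage sum (1759 CPM) and the lowest cardiomyocyte sum (46173 CPM) of its group. NLC-MI replicate 4 was not at either end for any of these 3 sums. Gbp4, Gbp5 and Gbp6 had other highest libraries, NLC-MI replicate 5 (macrophage sum 601 CPM) and TgGRK5-MI replicate 4 (992 CPM). NLC-MI replicate 5 had the highest cardiomyocyte sum (121134 CPM) and the lowest fibroblast sum (3150 CPM) of its group. TgGRK5-MI replicate 4 was at neither end for these 3 sums but had the highest endothelial sum (1598 CPM) of its group. The part of other cells in these differences was not tested.

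**Figure D5:**
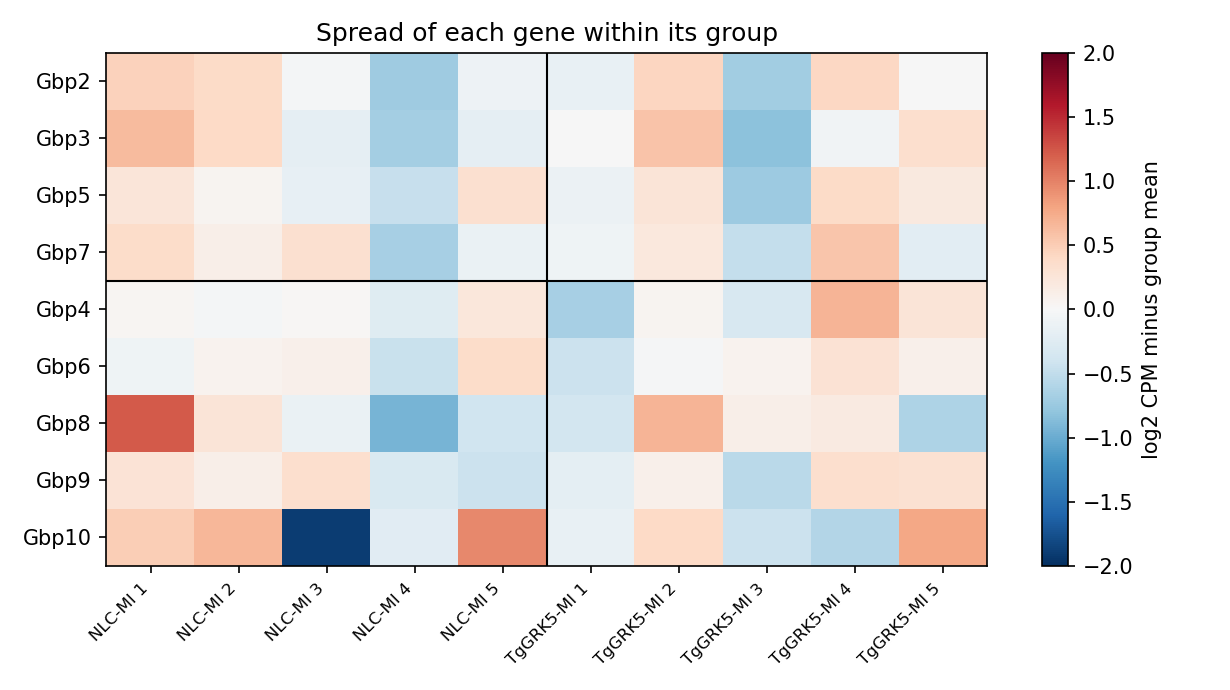
Departures of each library from the mean of its group for the 9 members tested. Colours give log2 CPM minus the group mean, with red above and blue below; NLC-MI replicate 4 is blue for all 9 genes and TgGRK5-MI replicate 3 is blue for 7 of them.

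The genes outside the family whose departures from the group means were most like the mean of the members were Oas2 (Pearson r = 0.957 over 10 libraries), Phf11b (0.954), Trim34a (0.928), Pcdhb7 (0.925) and Upf3a (0.920). Oas2 encodes an interferon-induced sensor of double-stranded RNA. These values describe the libraries, which share depth and cell content, and they were picked as the highest of all genes tested.

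Upstream of the GBPs, genes of interferon receptors and signalling showed no call. Of 20 listed genes, 18 passed the filter and 0 were called by edgeR or DESeq2. At an unadjusted p under 0.05, 0 were higher (1.77% of all genes) and 1 was lower (2.08%), and the median log2 fold change was -0.03. The lower gene was Socs3, a feedback inhibitor of cytokine signalling, which went from 38.7 ± 12.7 to 25.7 ± 5.86 CPM (n = 5 each, SD). Its log2 fold change was -0.59 (SE 0.24, unadjusted p = 0.0287 and adjusted p = 1.00 from edgeR), and the groups overlapped. Socs3 no longer passed the unadjusted threshold without NLC-MI replicate 1 or TgGRK5-MI replicate 3 or 4, and without TgGRK5-MI replicate 2 a second gene, Socs1, passed it (log2 fold change -1.20). Ifng, the cytokine itself, had 1 read in all 10 libraries together. Ifngr2, a receptor chain, lay between 165 and 262 CPM in NLC-MI and between 187 and 383 in TgGRK5-MI, and Ifnar2, a chain of the type I receptor, between 42.4 and 62.2 and between 50.2 and 80.1 CPM. Both had an edgeR adjusted p of 1.00.

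Regulators were also tested singly with a two-sided exact permutation test, whose smallest p for 5 against 5 libraries is 0.00794. Irf1, a transcription factor that interferon gamma induces, lay between 17.0 and 32.0 CPM in NLC-MI and between 17.8 and 33.9 in TgGRK5-MI (exact p = 0.810). The exact p was 0.444 for Ifngr1, 0.214 for Ifngr2 and 0.992 for Irf8, a factor of myeloid cells, and each was 0.992 after Benjamini-Hochberg adjustment over the 5 tests. A 95% interval was built from the edgeR log2 fold change, its SE and a t distribution with 8 degrees of freedom. The edgeR p-values rest on a different number of degrees of freedom. The interval ran from -0.61 to 0.45 for Irf1 and from -0.26 to 0.55 for Ifngr1. For Ifngr2 it ran from -0.16 to 0.86, and for Irf8 from -0.70 to 0.62. Differences of moderate size thus remain possible, in either direction for Irf1 and Irf8 and mainly upward for Ifngr1 and Ifngr2.

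The immunity-related GTPases are the other family of interferon-induced GTPases that guard vacuoles. A list built around them, with Irgq and Gvin1 included, gave a median log2 fold change of -0.21 over 14 tested genes of 16 listed. Among them 12 were below 0 and 2 above, where 49.8% of all genes tested were below 0. Either tool called 0 of the 14, and 1 was lower at an unadjusted p under 0.05 (2.08% of all genes). This was Iigp1, an effector GTPase, at 60.3, 50.3, 65.3, 25.6 and 83.6 CPM in NLC-MI and 34.7, 36.4, 37.5, 31.2 and 34.7 in TgGRK5-MI. The TgGRK5-MI libraries were close together, and 1 NLC-MI library, replicate 4, lay below all of them. The log2 fold change of Iigp1 was -0.71 (SE 0.25, unadjusted p = 0.0146 and adjusted p = 1.00 from edgeR). Irgm2, a regulator of the effector GTPases, had a log2 fold change of -0.25 (SE 0.19), and Irgq one of -0.22 (SE 0.16).

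Of 20 inflammasome, ubiquitin-like and autophagy genes whose products work with GBPs, all 20 passed the filter, with a median log2 fold change of 0.10. Of these, edgeR called 0 (0.0788% of all genes) and DESeq2 1 (0.397%). That gene was Pycard, the adaptor of the inflammasome also called ASC, which went from 14.4, 13.6, 11.0, 10.3 and 13.5 CPM in NLC-MI to 16.01, 20.6, 22.1, 17.9 and 22.3 in TgGRK5-MI. The groups did not overlap, as was so for 0.584% of all genes in that direction. Its log2 fold change was 0.65 (SE 0.16, unadjusted p = 0.00154 and adjusted p = 0.492 from edgeR, adjusted p = 0.0593 from DESeq2). Map1lc3b, which marks autophagosomes, and Atg7, an enzyme of the same conjugation system, had log2 fold changes of 0.20 (SE 0.17) and -0.12 (SE 0.12).

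Other targets of interferon gamma were level on average. Of 22 listed genes, 20 passed the filter, 9 were above 0 and 11 below, and the median log2 fold change was -0.02. Over all genes tested, 49.8% were below 0. With either tool, 0 listed genes passed an unadjusted p under 0.05 or an adjusted p under 0.10. Without NLC-MI replicate 3, 1 of them, B2m, passed the unadjusted threshold (log2 fold change 1.15). The lowest p belonged to Serping1, a complement inhibitor (log2 fold change 0.38, SE 0.28), Cxcl10, a chemokine (-0.47, SE 0.35), and Batf2, a transcription factor (0.48, SE 0.36). All 3 had overlapping groups.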

How the data were processed

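The members and gene lists were chosen with earlier results of these data known. RNA of isolated cardiomyocytes from 10 mice was sequenced in 1 library each. The counts that the authors deposited are whole numbers per Ensembl gene without normalization. The submitters' processing notes list Bowtie2, RSEM 1.2.31, DESeq2 and mm10, with no role or order, so the counts may be rounded estimates. Strand setting, read length and annotation were not given in the sources used here. Symbols and exons came from GENCODE M21 (51596 of 51789 identifiers matched). Promoters came from RefSeq, which held all 5 members of chromosome 3. Counts were tested in R 4.3.3 with edgeR 4.0.16 (TMM, filterByExpr, quasi-likelihood F test, Benjamini-Hochberg adjustment over 15232 genes, called at an adjusted p under 0.10). Log2 CPM values used a prior count of 2. Standard errors are the absolute log2 fold change divided by the square root of F. Alternatives were RLE factors, library size alone, DESeq2 1.42.0, 10 or more counts in every library, no filter, each library left out, and the replicate number as a block. Summing overlapping genes was added after the data were seen. Coding sequences were aligned with Biopython 1.88. The tests were tried on simulated counts. Of the 5 regulators tested singly, 1 is not reported here. Genes named outside the family were the transgene, the regulators, up to 3 genes per list with the lowest p, and the 5 most alike. Gm43302 and Gm43802 were named for their overlap, and Socs1 and B2m after their values were seen. Floors were set at 3 counts.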

Additional observations from a re-analysis of the deposited data

Results flagged for a closer look

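Of 72 groups of 5 libraries checked with Dixon's test at the 95% level, 6 had 1 library far from the others, where chance gives about 1 in 20. Several of the values checked are built from the same counts, so the groups are not independent and no excess is read from the 6. In TgGRK5-MI replicate 3, Gbp6 made up 11.4% of the reads of the family against 6.13 to 7.26% in the other 4 TgGRK5-MI libraries. There it held 0.326 times the reads of Gbp4, Gbp8 and Gbp9 together, against 0.199 to 0.211 times. In NLC-MI replicate 3 the ratio of Gbp6 to Gbp10 reads was 150, from 2 reads of Gbp10, against 18.1 to 25.0 in the other 4 NLC-MI libraries. The same library held 98 reads of Gm43302, the most of its group, and the part of the division of reads was not tested. The summed level of the chromosome 5 members in NLC-MI replicate 4 was 63.3 CPM against 85.4 to 89.4 CPM. Outside the family, Irf1 was at 33.9 CPM in TgGRK5-MI replicate 2 against 17.8 to 22.4 CPM, and Map1lc3b at 306 CPM in TgGRK5-MI replicate 3 against 209 to 228 CPM.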

How the results depend on the processing

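The log2 fold change of Gbp6 lay between -1.95 (DESeq2) and -1.92 (library size alone) under the other settings and between -2.03 and -1.84 with 1 library left out. Gbp6 was called in each, but this contrast led to the choice of the family, so nothing is read from these calls. Counted with Gbp10 and Gm43302, Gbp6 was at -0.96. That summed row lay between -0.97 and -0.92 under the alternatives and between -1.08 and -0.85 with 1 library left out, and DESeq2 alone called it. Libraries with the same replicate number are different mice. The correlations over genes of their departures from the group means were 0.0717, 0.662, 0.381, -0.341 and 0.0848. Their mean was 0.172, against -0.027 for libraries with different numbers. These few values cannot settle whether libraries with the same number share a batch. With the replicate number as a block, Gbp6 was at -1.93, 1 member was called, and the median of the members was -0.26. The block and 6 other choices moved calls over all genes from 12 to 8 (block), 8 (10 or more counts in every library), 11 (RLE), 18 (library size alone or no filter), 69 (DESeq2, which also differs in its filter: 17398 genes with an adjusted p against 15232), and 3 to 10 (1 library left out). Irf1 and Irf8 changed sign around 0, Ifngr1 and Ifngr2 did not, and in all settings run the lowest exact permutation p of these 4 was 0.111. Gbp8 and Gbp10 gave no value with 10 or more counts required in every library. With library size alone Irf8 was at 0.00208. With 1 library left out, Irf8 ran from -0.22 to 0.13 and Irf1 from -0.236 to 0.0361. With 1 library left out, the median of the members ran from -0.39 to -0.06, and those of 2 lists changed sign, interferon signalling (-0.16 to 0.09) and interferon gamma targets (-0.08 to 0.08). Gbp2 ran from -0.20 to 0.07 and Gbp8 from -0.88 to -0.05. Gbp2b and Gbp10 in NLC-MI replicate 3 were under the floor of the depth.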
